A study of Rattus norvegicus with 17 samples.

Results

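The endocytic receptors and machinery of the proximal tubule were examined as 8 genes: Lrp2, Cubn, Amn, Dab2, Lrpap1, Fcgrt, Clcn5 and Ocrl. They were taken by gene symbol from the gene and isoform tables, and each symbol had 1 row of its own among 31195 features with a single gene name and 126306 features in all. The libraries came from male Sprague Dawley rats. They arrived at 9 weeks of age, were kept on 0.4% Dyets chow, had surgery at 10 weeks and had the left kidney collected 6 weeks later. For the 5/6Nx group (n = 6) the right kidney and 2/3 of the left one had been excised, so that the remnant was the sole kidney. In the 1/3Nx group (n = 6) the same share of the left kidney had been excised and the right kidney remained, whereas sham surgery (n = 5) left both kidneys whole. None of the 17 rats received a drug or other treatment per the labels, and the tissue was whole kidney rather than isolated tubules.

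The proximal tubule takes up the proteins, hormones and vitamin carriers that pass the glomerular filter. Megalin (Lrp2) and the complex of cubilin (Cubn) with amnionless (Amn) bind these ligands at the apical membrane, Dab2 couples the receptors to clathrin, and the vesicles then acidify, releasing ligand to lysosomes while the receptors recycle. In humans, loss of Clcn5 or Ocrl function causes Dent disease or Lowe syndrome, in which small proteins are lost in the urine.

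Of the 8 genes, Amn alone passed the test, and it did so in 1/3Nx kidneys, a comparison in which 6.4% of all tested features were called. Amn had 103 FPKM in 1/3Nx kidneys and 259 FPKM in sham kidneys, that is 39.8% of the sham level. FPKM is fragments per kilobase of feature per M (mega) mapped fragments. The files hold 1 such value for each group of rats, so the spread over the rats is not given for any FPKM printed here. Amn fell by 1.33 on the log2 scale with a q of 0.00183 in the authors' deposited table of 1/3Nx against sham, where q is the adjusted p-value and the threshold is q under 0.05. Its p-value of 5e-05 was the lowest that occurs in the authors' deposited table. In 5/6Nx kidneys Amn had 133 FPKM, against 129.9 FPKM in the sham kidneys of the same table. That is a log2 fold change of 0.037 with a q of 0.985 in the authors' deposited table of 5/6Nx against sham. Whether the Amn difference from sham differed between both surgeries was not tested, since both comparisons share the sham rats and no error can be set on the difference.

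Amnionless is the membrane anchor of cubilin, which has no membrane-spanning part of its own and needs amnionless to reach the cell surface. In the deposited tables, on a build that is not settled, the Amn feature is listed at chr6:135724454-135731896, a span of 7443 bases with 1 isoform, and its isoform row passed too (q = 0.00490 in the authors' deposited table of isoforms). Among 1101 single-name features with at least 100 FPKM in sham of the 1/3Nx table, 3 had a lower log2 fold change than Amn. The promoters of Amn, Cubn and megalin are shown because these 3 genes form the receptor complex. Amn alone of the 3 passed, in 1/3Nx kidneys only, and no test compared the changes of these genes with one another. A link between promoter letters and expression was not tested. Each is 300 bases from RefSeq, build GRCr8, 250 before and 50 after the annotated start, read 5′ to 3′ on the gene's strand. Capitals mark CACGTG, the core that TFEB-type factors and other E-box factors read.
Amn, chr6:136132317-136132616, + strand: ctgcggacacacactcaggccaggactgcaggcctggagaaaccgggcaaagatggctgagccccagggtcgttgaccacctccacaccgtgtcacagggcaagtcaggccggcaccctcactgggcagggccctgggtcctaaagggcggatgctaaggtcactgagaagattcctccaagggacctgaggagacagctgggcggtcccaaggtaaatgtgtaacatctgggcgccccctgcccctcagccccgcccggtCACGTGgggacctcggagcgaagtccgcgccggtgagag
Cubn, chr17:81501645-81501944, - strand: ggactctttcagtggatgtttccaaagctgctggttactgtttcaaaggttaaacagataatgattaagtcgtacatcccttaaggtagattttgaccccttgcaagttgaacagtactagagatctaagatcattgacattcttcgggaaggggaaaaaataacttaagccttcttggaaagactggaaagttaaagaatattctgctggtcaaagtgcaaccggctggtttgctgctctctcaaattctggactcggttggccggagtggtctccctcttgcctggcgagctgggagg
Lrp2, chr3:74754486-74754785, - strand: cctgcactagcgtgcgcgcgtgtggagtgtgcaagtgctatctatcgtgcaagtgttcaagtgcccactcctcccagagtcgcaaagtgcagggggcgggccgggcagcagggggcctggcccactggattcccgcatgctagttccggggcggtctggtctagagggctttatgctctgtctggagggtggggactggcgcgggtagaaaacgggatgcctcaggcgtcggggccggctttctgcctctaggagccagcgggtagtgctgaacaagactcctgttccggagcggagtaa
The Amn window held 1 CACGTG, beginning 11 bases after the start base, and the windows of Cubn and Lrp2 held none. The motif, which reads the same on both strands, was in 2148 of 33469 RefSeq promoters (6.42%). The HNF1 motif GTTAAT, searched on both strands, was in 7.45% of promoters and in none of these 3. Of the 8 genes, 7 had an entry in the promoter table, and Fcgrt alone among those 7 held GTTAAT, read as ATTAAC on its own strand, beginning 13 bases after its annotated start. These matches describe letters in a window and not bound sites.

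Cubilin, the peripheral receptor for intrinsic factor with vitamin B12, albumin and transferrin, did not pass in either comparison. Cubn had 14.2 FPKM in 5/6Nx kidneys, against 14.9 FPKM in sham kidneys. The log2 fold change was -0.065 with a q of 0.976 in the authors' deposited table of 5/6Nx against sham. In 1/3Nx kidneys Cubn had 25.8 FPKM, against 29.9 FPKM in sham kidneys, with a log2 fold change of -0.21 with a q of 0.724 in the authors' deposited table of 1/3Nx against sham. Per length, the Amn level was 4.002 times the Cubn level in 1/3Nx kidneys and 8.67 times in sham kidneys. In the other table the ratio was 9.39 in 5/6Nx kidneys and 8.75 in sham kidneys. Both genes of the complex were therefore present in every group, at unequal levels, and the ratios carry no test.

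Megalin, the large multi-ligand receptor of the apical membrane, had 41.0 FPKM in 5/6Nx kidneys, against 65.7 FPKM in sham kidneys. The log2 fold change was -0.68 with p = 0.656 and a q of 0.717 in the authors' deposited table of 5/6Nx against sham. Lrp2 had 108 FPKM in 1/3Nx kidneys, against 132 FPKM in sham kidneys, with a log2 fold change of -0.29 with a q of 0.696 in the authors' deposited table of 1/3Nx against sham. The megalin level was 62.4% of sham in 5/6Nx kidneys and 81.8% of sham in 1/3Nx kidneys, and neither value passed.

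Lrpap1 encodes the receptor-associated protein, a chaperone that keeps newly made megalin free of ligand in the endoplasmic reticulum. It had 95.8 FPKM in 5/6Nx kidneys, against 152 FPKM in sham kidneys, with a log2 fold change of -0.67 with a q of 0.555 in the authors' deposited table of 5/6Nx against sham. Lrpap1 had 209.9 FPKM in 1/3Nx kidneys, against 304 FPKM in sham kidneys. Here the log2 fold change was -0.54 with an unadjusted p of 0.0225 and q of 0.184 in the authors' deposited table of 1/3Nx against sham. The chaperone thus stood under the unadjusted threshold in 1/3Nx kidneys and failed after adjustment. The ratio of Lrpap1 to Lrp2 was 2.34 in 5/6Nx kidneys and 2.31 in sham kidneys of that table, and 1.94 in 1/3Nx kidneys and 2.30 in sham kidneys of the other.

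Dab2 is the adaptor that links the tails of megalin to clathrin and AP-2. It had 58.1 FPKM in 5/6Nx kidneys, against 95.8 FPKM in sham kidneys, with a log2 fold change of -0.72 with a q of 0.503 in the authors' deposited table of 5/6Nx against sham. Dab2 had 153 FPKM in 1/3Nx kidneys, against 193 FPKM in sham kidneys, with a log2 fold change of -0.33 with a q of 0.536 in the authors' deposited table of 1/3Nx against sham. Relative to megalin the adaptor stood at 1.42 in 5/6Nx kidneys and 1.46 in sham kidneys, and at 1.42 in 1/3Nx kidneys and 1.46 in sham kidneys of the other table. The direction for Dab2 in 1/3Nx depends on which isoform rows are read: the 1 isoform row that carries the symbol had 3.24 FPKM in 1/3Nx kidneys and 1.76 FPKM in sham kidneys. That row held only 2.11% of the Dab2 level in 1/3Nx kidneys and 0.911% in sham kidneys, and did not pass. The sum of all isoform rows gave a log2 fold change of -0.33.

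Fcgrt encodes the neonatal Fc receptor, which binds albumin and IgG at acid pH and returns them from endosomes. It had 53.9 FPKM in 5/6Nx kidneys, against 52.9 FPKM in sham kidneys, with a log2 fold change of 0.028 with a q of 0.986 in the authors' deposited table of 5/6Nx against sham. Fcgrt had 82.6 FPKM in 1/3Nx kidneys, against 106 FPKM in sham kidneys, with a log2 fold change of -0.35 with a q of 0.412 in the authors' deposited table of 1/3Nx against sham. Neither value passed.

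Clcn5 encodes ClC-5, the chloride and proton exchanger of early endosomes, and Ocrl encodes an inositol 5-phosphatase of endosomes. Both were far lower than the receptors per length. Clcn5 had 1.20 FPKM in 5/6Nx kidneys, against 1.71 FPKM in sham kidneys, with a log2 fold change of -0.51 with a q of 0.668 in the authors' deposited table of 5/6Nx against sham. Ocrl had 0.286 FPKM in 5/6Nx kidneys, against 0.528 FPKM in sham kidneys, with a log2 fold change of -0.88 with a q of 0.540 in the authors' deposited table of 5/6Nx against sham. In the 1/3Nx comparison these were the only members with values above sham. Clcn5 had 4.12 FPKM in 1/3Nx kidneys, against 3.47 FPKM in sham kidneys, with a log2 fold change of 0.25 with a q of 0.802 in the authors' deposited table of 1/3Nx against sham. Ocrl had 1.55 FPKM in 1/3Nx kidneys, against 1.07 FPKM in sham kidneys, with a log2 fold change of 0.54 with p = 0.0987 and a q of 0.408 in the authors' deposited table of 1/3Nx against sham. Neither gene passed in either comparison.

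**Figure D1:**
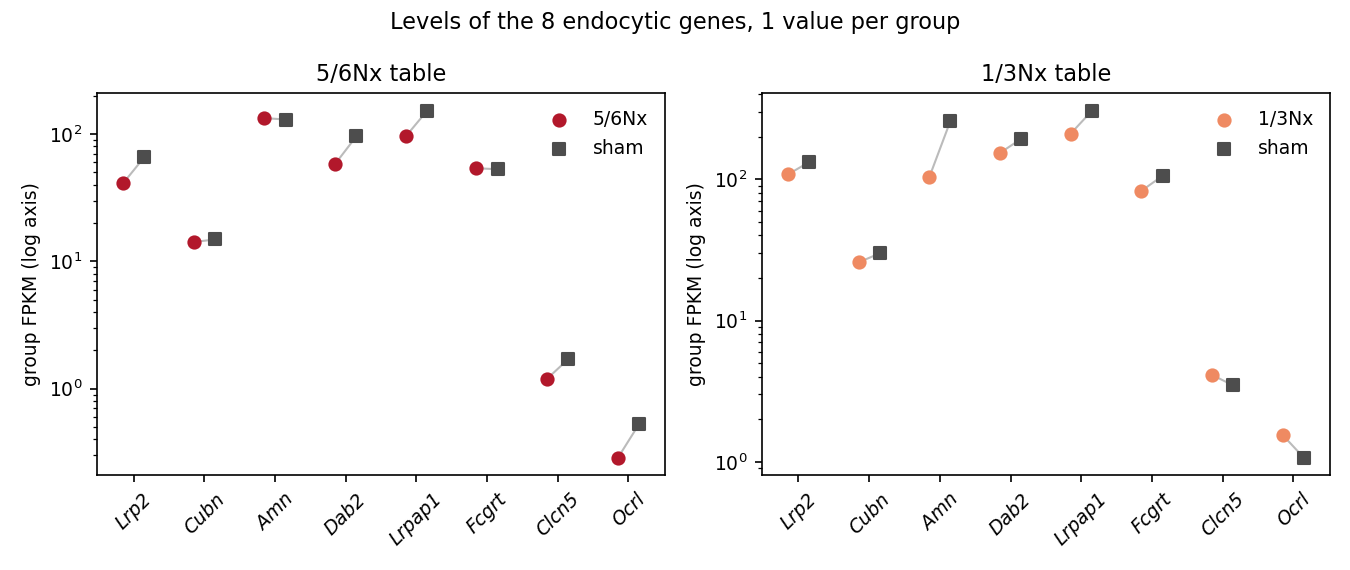
Group FPKM of the 8 genes on a log axis in the 5/6Nx table (left) and the 1/3Nx table (right), with circles for the surgery group, squares for sham and a grey line joining the pair. Each point is 1 deposited value per group with no error, and the steepest line is that of Amn in the 1/3Nx table, at 103 FPKM in 1/3Nx kidneys and 259 FPKM in sham kidneys.

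Per length, the order of levels in sham kidneys was Lrpap1, Amn, Dab2, Lrp2, Fcgrt, Cubn, Clcn5 and Ocrl. Among 17744 single-name features above 0 in sham of the 1/3Nx table, Lrpap1 ranked 408, Amn 461, Dab2 612, Lrp2 854 and Fcgrt 1052, while Cubn ranked 2918, Clcn5 8825 and Ocrl 11187. In 5/6Nx kidneys the order began with Amn, Lrpap1, Dab2, Fcgrt and Lrp2. In 1/3Nx kidneys it began with Lrpap1, Dab2, Lrp2, Amn and Fcgrt, so that Amn stood in the fourth place. Cubn, Clcn5 and Ocrl closed the order in every group. Without values per library, no neighbours in these orders can be shown to differ. Sham levels in the 1/3Nx table were 1.99 to 2.03 times those of the 5/6Nx table for the 8 genes, although both describe the same sham group, so levels were compared only within a table.

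As a set, the 8 genes gave 0 calls in 5/6Nx kidneys, with 0 under an unadjusted p of 0.05. There, 58.0% of all 103823 tested features were called, but 58038 of the 60264 calls were unnamed features listed at 0 in sham. Among the 10068 tested single-name features with at least 1 FPKM in sham, 1.7% were called. In 1/3Nx kidneys 1 of the 8 was called, where 6.4% of all tested features and 7.28% of the 11259 single-name features with at least 1 FPKM in sham were called. Calls in the lower direction made up 3.09% of those 11259 features. The median log2 fold change of the 8 genes was -0.59 in 5/6Nx kidneys, beside -0.20 over the 10068 features, and -0.31 in 1/3Nx kidneys, beside -0.01 over the 11259 features. In value, 6 of the 8 genes were below sham in each comparison, and these medians and counts describe deposited group values only.

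The general shift of -0.20 in the 5/6Nx table touches the directions. Relative to it, the 5/6Nx values were -0.49 for Lrp2, 0.13 for Cubn, 0.23 for Amn, -0.53 for Dab2, -0.47 for Lrpap1, 0.22 for Fcgrt, -0.32 for Clcn5 and -0.69 for Ocrl on the log2 scale. Cubn thus changed sign. No interval can be set on the deposited fold changes, so a q above the threshold does not show that levels were equal. For the 8 genes, the log2 fold change per unit of the deposited test statistic was 2.26 to 5.65 for 5/6Nx and 0.494 to 0.858 for 1/3Nx. The same log2 fold change thus came with a smaller test statistic in 5/6Nx, so calls in both comparisons are not on an equal footing. The threshold differed too: the highest p-value called by the authors' deposited test was 0.02895 for 5/6Nx and 0.0032 for 1/3Nx. With q over single-name features, each of the 8 genes had a q of 0.9998 in 5/6Nx kidneys.

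**Figure D2:**
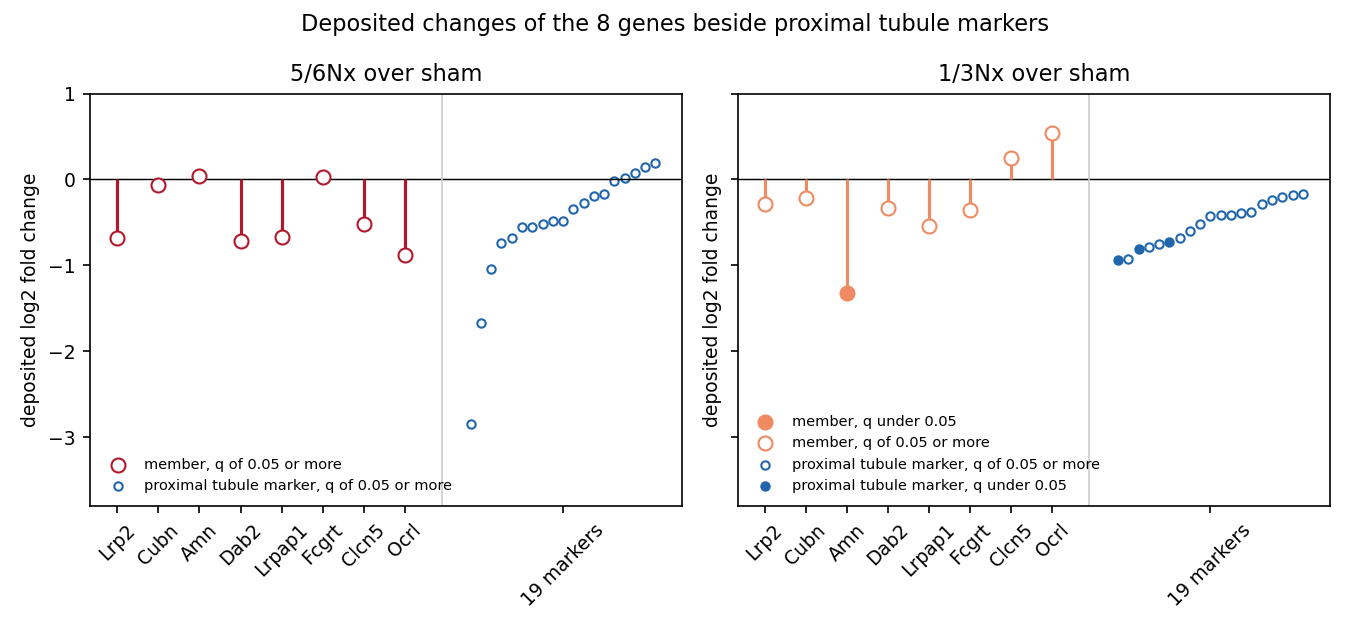
Deposited log2 fold changes over sham for the 8 genes (large circles with stems) and 19 proximal tubule marker genes sorted by value (small circles), in 5/6Nx kidneys (left) and 1/3Nx kidneys (right), with filled symbols for q under 0.05. Amn at -1.33 in 1/3Nx kidneys is the single filled large circle, and the markers run between -2.84 and 0.19 in 5/6Nx kidneys and between -0.94 and -0.17 in 1/3Nx kidneys.

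The label of the genes was set against a list of 20 proximal tubule markers, of which 19 had a feature of their own and none was listed at 0 in sham. In 1/3Nx kidneys all 19 were below sham in value, with a median log2 fold change of -0.43, and their summed level was 12046 FPKM, against 17561 FPKM in sham kidneys. Of the 19, 3 fell past the threshold and 9 had an unadjusted p under 0.05 in the authors' deposited table. Among tested single-name features with at least 1 FPKM in sham, 3.09% were called lower. The 3 were the organic anion transporter Slc22a6, the dicarboxylate transporter Slc13a3 and the gamma-glutamyl transferase Ggt1, named after their values were seen. None of the 19 passed in 5/6Nx kidneys, also with 0 under an unadjusted p of 0.05, the median was -0.48 and the summed level was 6537 FPKM, against 8764 FPKM in sham kidneys. Relative to the marker median in 1/3Nx kidneys, Amn (-0.90) and Lrpap1 (-0.11) stayed lower, whereas Lrp2 (0.14), Cubn (0.22), Dab2 (0.10), Fcgrt (0.076), Clcn5 (0.68) and Ocrl (0.97) were above it on the log2 scale. In bulk tissue, fewer proximal tubule cells and less RNA per cell cannot be told apart.

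Markers of other cell types and tissues were read in the same way. In 1/3Nx kidneys 5.7% of all tested single-name features were called higher and 2.63% lower. In 5/6Nx kidneys 8.1% were called in either direction. Of 8 macrophage markers, all 8 rose in 1/3Nx kidneys, with a summed level of 756 FPKM, against 277 FPKM in sham kidneys. No macrophage marker passed in 5/6Nx kidneys, 2 had an unadjusted p under 0.05, and the sum was 341 FPKM, against 138 FPKM in sham kidneys. Macrophages also express Dab2 and Fcgrt, and their part in the values of these genes was not tested. Fibroblast and mural cell markers summed to 312 FPKM in 1/3Nx kidneys, against 94.1 FPKM in sham kidneys, with 5 of 5 higher. They summed to 134 FPKM in 5/6Nx kidneys, against 46.9 FPKM in sham kidneys, with 0 of 5 past the threshold. Tubular injury markers rose past the threshold in 6 of 7 tested in 1/3Nx kidneys and 2 of 7 in 5/6Nx kidneys. With q over single-name features, 1 of 7 passed in 5/6Nx kidneys. All 7 were above sham in value in both comparisons, with a median log2 fold change of 1.55 in 1/3Nx kidneys and 2.00 in 5/6Nx kidneys. The list summed to 2191 FPKM in 1/3Nx kidneys, against 658 FPKM in sham kidneys, and to 1861 FPKM in 5/6Nx kidneys, against 328 FPKM in sham kidneys. Of 6 exocrine pancreas markers, 5 rose in 1/3Nx kidneys (685 FPKM summed, against 1.40 FPKM in sham kidneys) and 4 rose in 5/6Nx kidneys (468 FPKM, against 0.699 FPKM in sham kidneys). With q over single-name features, 2 of the 6 rose in 5/6Nx kidneys, and none of the 6 reached 1 FPKM in sham. Among the remaining 8 lists in 1/3Nx kidneys, 4 of 4 urothelium, 3 of 4 liver, 1 of 4 adipocyte and 1 of 5 endothelium markers rose, 1 of 6 podocyte markers fell, and no marker of the thick ascending limb, distal and collecting duct or intercalated cells passed. Of the same lists in 5/6Nx kidneys, 2 of 4 adipocyte markers rose, or 1 with q over single-name features, and no other marker passed. The part of these cell types and tissues in the results was not tested.

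At the level of isoforms, the 8 features held 18 isoform rows in each table, 11 of them named and 15 of them tested. Of these, 0 passed in 5/6Nx kidneys (0 under an unadjusted p of 0.05), where 49.6% of all tested isoforms were called. Of the gene calls in 5/6Nx kidneys, 58038 of 60264 were unnamed features listed at 0 in sham. The isoform calls were not split in this way, so the 49.6% is no share for isoforms like these. In 1/3Nx kidneys the Amn isoform alone passed, where 1.72% of all tested isoforms were called. Lrp2, Cubn and Ocrl each rested on 1 isoform that carried most of the level: ENSRNOT00000082624, ENSRNOT00000090064 and ENSRNOT00000005267.

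The Dab2 level was carried by isoforms that the authors assembled without a gene name. MSTRG.54965.1 made up 47.4% of the Dab2 level in 5/6Nx kidneys and 60.2% in sham kidneys. In the other table it made up 48.6% in 1/3Nx kidneys and 60.1% in sham kidneys. The isoform MSTRG.54965.3 made up 44.6% in 5/6Nx kidneys and 33.7% in sham kidneys, and 43.6% in 1/3Nx kidneys and 33.8% in sham kidneys. In FPKM, MSTRG.54965.1 had 74.6 in 1/3Nx kidneys and 115.9 in sham kidneys, while MSTRG.54965.3 had 66.8 in 1/3Nx kidneys and 65.2 in sham kidneys. The log2 fold change of MSTRG.54965.1 was -0.64 with p = 0.0714 and a q of 0.729 in the authors' deposited table of 1/3Nx isoforms. The share of this isoform was lower in both surgery groups than in sham, without a test of the shares.

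For Fcgrt the shares moved in opposite directions between the tables. The unnamed isoform MSTRG.4733.1 made up 12.8% of the Fcgrt level in 5/6Nx kidneys and 18.6% in sham kidneys. It made up 30.1% in 1/3Nx kidneys and 18.7% in sham kidneys. The named isoform ENSRNOT00000027944 had 57.7 FPKM in 1/3Nx kidneys, against 85.9 FPKM in sham kidneys, with a log2 fold change of -0.57 with p = 0.0612 and a q of 0.680 in the authors' deposited table of 1/3Nx isoforms. The named Lrpap1 isoform made up 73.5% in 5/6Nx kidneys and 69.6% in sham kidneys, and 75.4% in 1/3Nx kidneys and 69.6% in sham kidneys. For Clcn5, ENSRNOT00000003895 made up 90.1% in 5/6Nx kidneys and 79.5% in sham kidneys, and 81.0% in 1/3Nx kidneys and 79.6% in sham kidneys. None of these isoforms passed.

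**Figure D3:**
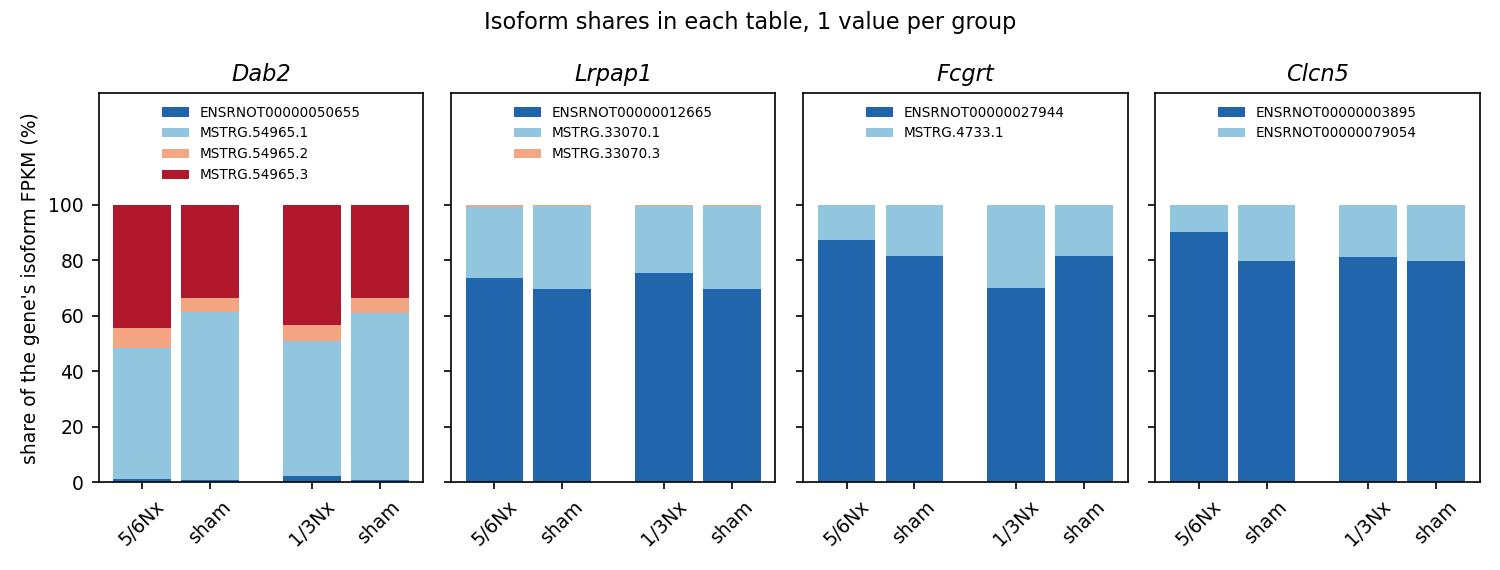
Stacked bars of the percent of each gene's summed isoform FPKM held by each isoform for Dab2, Lrpap1, Fcgrt and Clcn5, with 5/6Nx and its sham on the left of each panel and 1/3Nx and its sham on the right, 1 value per group. The MSTRG.54965.1 part of Dab2 is smaller in both surgery groups (47.4% in 5/6Nx, 48.6% in 1/3Nx) than in sham (60.2% and 60.1%).

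Some of the 8 features share their interval with others. The Lrp2 feature at chr3:55665144-55822551 spans 6 unnamed features, whose FPKM summed to 438 in 5/6Nx kidneys and 0.0866 in sham kidneys. In the 1/3Nx table these summed to 0.131 in 1/3Nx kidneys and 0.174 in sham kidneys. None of the 6 was called, and the lowest q among them was 0.0702 in the authors' deposited table of 5/6Nx against sham. The Amn interval held 1 such feature with 37.9 FPKM in 5/6Nx kidneys and 0 in sham kidneys (q = 0.122 in the authors' deposited table of 5/6Nx against sham). The Clcn5 interval, chrX:16050779-16196789, held 3, of which 2 had values in 5/6Nx kidneys, and also the microRNA genes Mir532, Mir188, Mir362, Mir3560 and Mir500, all listed at 0. How reads were divided between a gene and features inside it was not given in the sources used here. In RefSeq, Cubn overlaps the long noncoding RNA LOC102550536, and without a stated strand setting their reads cannot be told apart.

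Of 5532 single-name genes with at least 10 FPKM in sham of the 1/3Nx table, the 5 whose pair of log2 fold changes lay nearest to megalin's were Slc38a10, Sdhd, Plekhb2, Ccpg1os and Maf. Their Euclidean distances were 0.0172, 0.0244, 0.0255, 0.0276 and 0.0293, over only 2 comparisons that share the sham rats. Sdhd encodes a subunit of succinate dehydrogenase in mitochondria, and Maf a bZIP transcription factor.

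The wider pathway was read from 5 lists with 99 other genes, of which 91 had a feature of their own. Of these, 0 of 89 tested passed in 5/6Nx kidneys (0 under an unadjusted p of 0.05), with a median log2 fold change of -0.26. There, 8.1% of all tested single-name features were called, and 1.7% of those with at least 1 FPKM in sham. In 1/3Nx kidneys 2 of 88 rose, 7 fell and 79 did not pass, and 20 had an unadjusted p under 0.05. That is 10.2% called, beside 8.33% of all tested single-name features (5.7% higher and 2.63% lower). Among those with at least 1 FPKM in sham, 7.28% were called. The median log2 fold change of the pathway genes in 1/3Nx kidneys was -0.02.

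Of 12 tested receptors and partners, 3 fell, 1 rose and 8 did not pass in 1/3Nx kidneys, beside 2.63% lower and 5.7% higher over all tested single-name features. Folr1, the folate receptor of the brush border, had 523 FPKM in 1/3Nx kidneys, against 1056 FPKM in sham kidneys. It fell by 1.01 on the log2 scale with a q of 0.00335 in the authors' deposited table of 1/3Nx against sham. In 5/6Nx kidneys Folr1 had 610.0 FPKM, against 529 FPKM in sham kidneys, with a log2 fold change of 0.20 with a q of 0.868 in the authors' deposited table of 5/6Nx against sham. Folr1 thus had values below sham after 1/3Nx and above sham after 5/6Nx, and the difference was not tested. Amn and Fcgrt had the same signs, with log2 fold changes of only 0.037 and 0.028 in 5/6Nx kidneys. So did the proximal tubule markers Slc22a6 (0.15), Slc13a3 (0.020) and Ggt1 (0.071), whereas 15 of the 19 markers were below sham in 5/6Nx kidneys. Igf2r, the mannose 6-phosphate receptor that carries enzymes to lysosomes, fell by 0.69 (q = 0.0351), and Tcn2, the vitamin B12 carrier that megalin takes up, fell by 0.65 with a q of 0.0398, both on the log2 scale and from the authors' deposited table of 1/3Nx against sham.

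Lrp1, a member of megalin's receptor family that is expressed widely outside the tubule, had 3.40 FPKM in 1/3Nx kidneys, against 1.67 FPKM in sham kidneys. It rose by 1.03 on the log2 scale with a q of 0.00183 in the authors' deposited table of 1/3Nx against sham. B2m, the light chain that the neonatal Fc receptor needs, had 865 FPKM in 1/3Nx kidneys, against 603 FPKM in sham kidneys, with a log2 fold change of 0.52 with p = 0.0426 and a q of 0.260 in the authors' deposited table of 1/3Nx against sham. B2m did not pass.

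Of the clathrin coat, adaptor and scission list, 2 of 20 tested genes fell and 1 rose in 1/3Nx kidneys. Over all tested single-name features the shares were 2.63% lower and 5.7% higher. Ap2s1, the small subunit of the AP-2 adaptor, had 199 FPKM in 1/3Nx kidneys, against 331 FPKM in sham kidneys, a fall by 0.73 on the log2 scale with a q of 0.0162 in the authors' deposited table of 1/3Nx against sham. In 5/6Nx kidneys Ap2s1 had 287 FPKM, against 166 FPKM in sham kidneys, and did not pass. Cltb, a clathrin light chain, fell by 0.66 (q = 0.0482), and Synj2, an inositol phosphatase of vesicle uncoating, rose by 1.25 (q = 0.0209) from a low level, both on the log2 scale and from the authors' deposited table of 1/3Nx against sham. The other light chain, Clta, had 353 FPKM in 1/3Nx kidneys, against 469 FPKM in sham kidneys, and did not pass, with a q of 0.322 in the authors' deposited table of 1/3Nx against sham.

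Downstream of uptake, 1 of 19 early and recycling endosome genes, 1 of 16 acidification genes and 0 of 21 lysosome genes passed in 1/3Nx kidneys, with 5 of the lysosome genes under an unadjusted p of 0.05. Over all tested single-name features, 8.33% were called. Ehd1, which acts in recycling from endosomes, had 52.5 FPKM in 1/3Nx kidneys, against 86.3 FPKM in sham kidneys, a fall by 0.72 on the log2 scale with a q of 0.00944 in the authors' deposited table of 1/3Nx against sham. Atp6v0d1, a subunit of the proton pump that acidifies endosomes, had 223 FPKM in 1/3Nx kidneys, against 362 FPKM in sham kidneys, a fall by 0.70 with a q of 0.0330 in the authors' deposited table of 1/3Nx against sham. Other abundant genes of these lists did not pass in 1/3Nx kidneys. Vps29 of the retromer had 138 FPKM in 1/3Nx kidneys and 151 FPKM in sham kidneys, and Rab5c had 129 FPKM in 1/3Nx kidneys and 133 FPKM in sham kidneys. The pump subunit Atp6v0c had 710.4 FPKM in 1/3Nx kidneys and 1032 FPKM in sham kidneys, and the proteases Ctsh and Ctsl had 1233 and 1305 FPKM in 1/3Nx kidneys and 1525 and 1302 FPKM in sham kidneys.

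**Figure D4:**
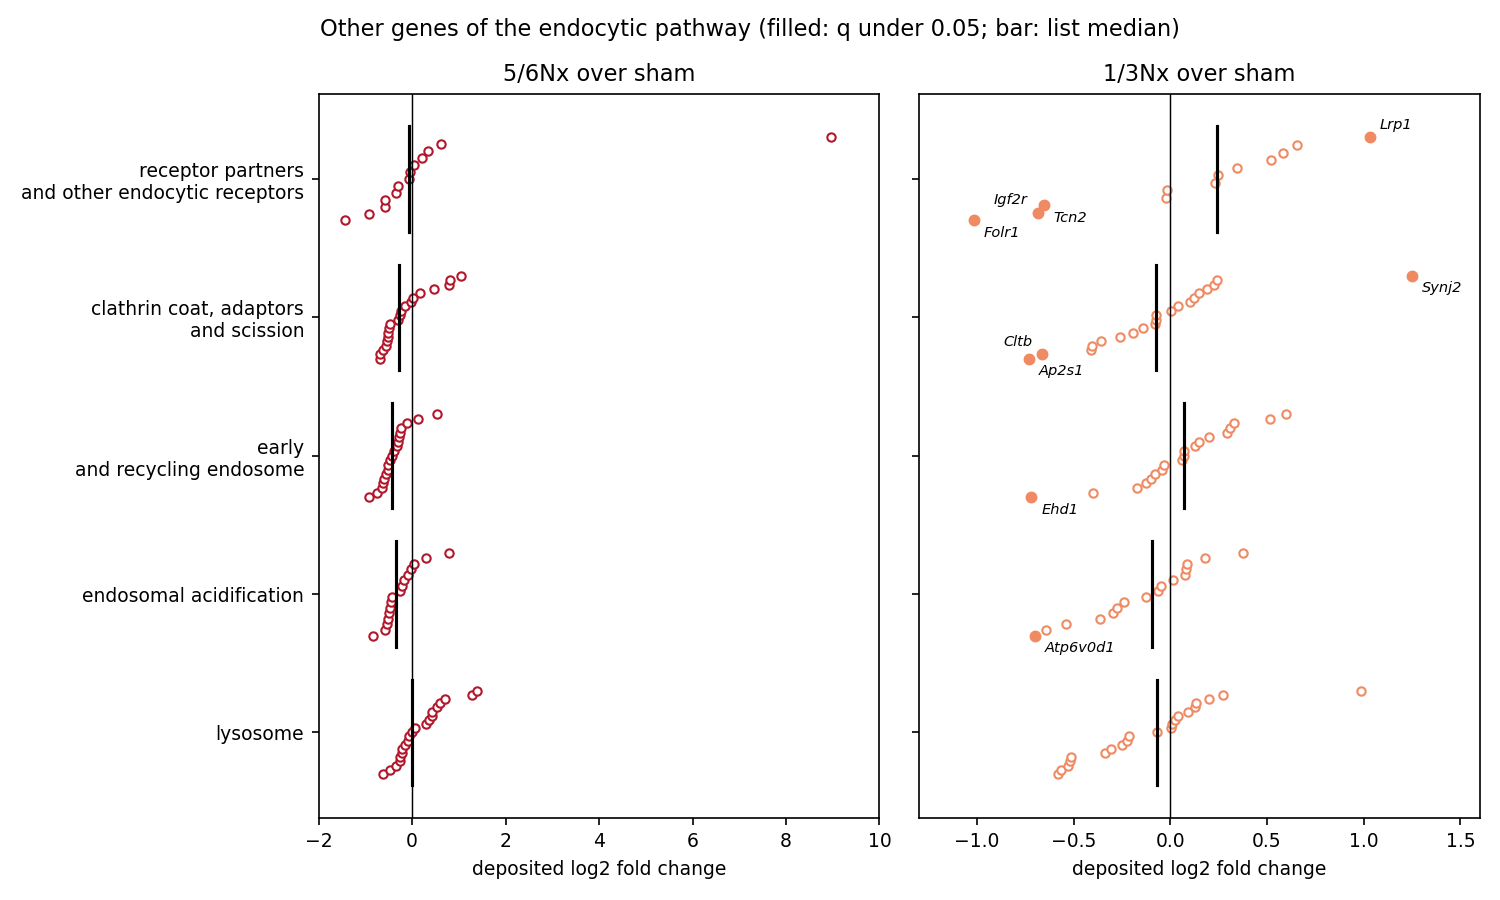
Deposited log2 fold changes over sham for the tested genes of the 5 pathway lists in 5/6Nx kidneys (left) and 1/3Nx kidneys (right), on different horizontal scales, with points spread by rank within a list, a vertical bar at each list median and filled points for q under 0.05. The 9 filled points are all in the 1/3Nx panel, from Folr1 at -1.01 to Synj2 at 1.25, and the point near 9 in the 5/6Nx panel is Gif, at 0.00561 FPKM in sham.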

How the data were processed

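Per the labels' protocols, Trizol extracts of left kidney went into TruSeq Stranded Total RNA libraries, which the same text calls small RNA, and were read as pairs on a HiSeq. Which wording holds is unclear. Tools named by the submitters' processing notes are cutadapt, FastQC, TopHat2 2.1.1, StringTie and Cufflinks 2.2.1, beside the build rn5, with no role or order. The command, the strand setting and the meaning of the test statistic are not given in the sources used here. Some sequence names belong to later assemblies, so it is unclear which build the coordinates use.

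For each surgery the authors deposited gene and isoform tables against sham, which hold a single FPKM for each group, the log2 fold change (surgery over sham), the test statistic, the p-value and the q-value, per the file headers. A further deposited table lists for each library its read count, its mapped percent, its percent of bases at quality score 30 and above, and its average score. In 628 rows with several gene names the columns are shifted to the right in the deposited tables, and these rows were read from the right end.

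Reads per library averaged, in M (mega) reads, 71.9 ± 16.4 in 5/6Nx (SD, n = 6), 70.3 ± 9.27 in 1/3Nx (SD, n = 6) and 71.4 ± 4.59 in sham (SD, n = 5). The share mapped was 82.7% ± 11.0 (SD, n = 6) in 5/6Nx, with a range of 62.6% to 90.5%, 89.0% ± 1.16 (SD, n = 6) in 1/3Nx, whereas sham had 87.7% ± 1.94 (SD, n = 5). By exact permutation tests, two-sided, the mapped share differed by -5.05 percentage points for 5/6Nx minus sham (p = 0.422, adjusted p = 0.844 over 4 tests) and by 1.31 for 1/3Nx minus sham (p = 0.199, adjusted p = 0.797). Without 5/6Nx replicate 3, the library with 62.6% mapped, the first difference was -1.04 by the same exact test (p = 0.849), and without sham replicate 3 the second was 0.583 (p = 0.438). By the same exact tests, reads differed by 0.490 M for 5/6Nx minus sham (p = 0.974) and by -1.14 M for 1/3Nx minus sham (p = 0.810). Summed over all features, FPKM came to 6272200 in 5/6Nx kidneys and 417302 in sham kidneys of the same table.

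The 8 genes and the gene lists were chosen with earlier results of these data known. Expression values per library were not analysed here, and the test used throughout is the authors' deposited one, with q under 0.05 over the whole table. Named genes are the 8 members, the list genes past the threshold (up to 6 per list) and the 2 with the highest sham FPKM per list. One list gene is not reported here and was left out of its list and of the counts. For marker lists, sums, counts and at most 3 examples are given. The named genes nearest to Lrp2 needed at least 10 FPKM in sham of the 1/3Nx table. Alternatives were q over single-name features, pseudocounts of 1 and 0.1, centring on single-name features or on proximal tubule markers, sums over rows and, chosen after seeing the data, sums over all isoform rows of a feature. Tables were read with Python 3.11.15 and pandas 2.3.3. RefSeq promoters and neighbours are of GRCr8.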

Additional observations from a re-analysis of the deposited data

Results flagged for a closer look

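Some features that carry no gene name lie inside the intervals of the endocytic genes and had a level in 5/6Nx kidneys where sham kidneys were listed at 0. Inside Lrp2, MSTRG.67786 had 12.9 FPKM, MSTRG.67787 had 32.3 FPKM, MSTRG.67790 had 179 FPKM and MSTRG.67791 had 116 FPKM in 5/6Nx kidneys. Inside Amn, MSTRG.93236 had 37.9 FPKM in 5/6Nx kidneys. Inside Clcn5, MSTRG.113139 had 60.5 FPKM and MSTRG.113147 had 71.3 FPKM in 5/6Nx kidneys. None of the 7 was called, and in the 1/3Nx table all 7 were listed at 0 in both groups.

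One library stood apart in depth: 5/6Nx replicate 5 had 103.6 M (mega) reads, and the next highest of the 6 had 73.0 M. The gap was 0.685 of the range of the group. Such a check was made for 9 combinations of group and measure, and chance alone marks about 1 in 20.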

How the results depend on the processing

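Amn in 1/3Nx kidneys kept its direction and its call under every alternative with a test, with q between 0.00156 and 0.00183. The number of the 8 genes past the threshold stayed at 0 in 5/6Nx kidneys and 1 in 1/3Nx kidneys when q was taken over single-name features. Of the other pathway genes, 2 rose in 1/3Nx kidneys in the report. With q over single-name features 3 did, Tfrc being added (q = 0.0451), and with q over single-name features with at least 1 FPKM in sham 1 did, which leaves fewer genes tested. With that filter, liver markers that rose in 1/3Nx kidneys numbered 1 in place of 3, and no adipocyte or tubular injury marker passed in 5/6Nx kidneys. Over both comparisons, centring on proximal tubule markers reversed 5 directions of the 8 genes and kept 11. Centring on single-name features reversed 1 and kept 15, as did using only isoform rows that carry the symbol. Centring the 5/6Nx values on single-name features put Cubn at 0.13, and centring them on proximal tubule markers put it at 0.42. Centring the 1/3Nx values on proximal tubule markers put Lrp2 at 0.14, Cubn at 0.22, Dab2 at 0.10 and Fcgrt at 0.076. Using only isoform rows that carry the symbol put Dab2 at 0.88 in 1/3Nx kidneys. The other alternatives kept every direction of the 8 genes. Without each library in turn, the difference in reads ran between -5.84 and 3.07 M for 5/6Nx minus sham and between -3.69 and 0.968 M for 1/3Nx minus sham, with exact permutation p-values of at least 0.135. The difference in mapped share ran between -6.62 and -1.04 percentage points for 5/6Nx minus sham and between 0.583 and 1.78 for 1/3Nx minus sham. The 8 genes could not be refitted without a replicate, since the tables hold 1 value per group. No paired analysis was possible because the tables hold group values and the labels give no replicate numbers shared between groups.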
